A study of Mus musculus with 8 samples.

Results

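Mesothelial nuclei, the nuclei of the flat epithelial-like cells that line the surface of visceral fat, were picked from single-nucleus RNA sequencing of mouse visceral white adipose tissue. Each droplet barcode carried counts of unique molecular identifiers (UMIs), 1 per captured RNA molecule. A barcode was kept with at least 1000 UMIs, at least 300 genes and at most 5% of UMIs from mitochondrial genes. It was called mesothelial when at least 3 of 8 markers (Msln, Upk3b, Wt1, Muc16, Lrrn4, Gpm6a, Nxph1 and Pkhd1l1) had a UMI and their summed UMIs were above each of 4 other sums. Those sums stood for adipocytes (Plin1, Plin4, Cidec), stromal progenitors (Pdgfra, Dcn, Col3a1), macrophages (Adgre1, Csf1r, Mertk) and blood endothelium (Flt1, Ptprb, Cyyr1). The rule found 3949 mesothelial nuclei among 77987 kept barcodes, and every value of the 20 genes in it is a description of the choice.

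The tissue was snap frozen, its nuclei were sorted on the DNA dye DAPI, and 1 library was made per mouse with 10x Chromium 3′ chemistry, for 4 groups of 2 mice. The mCherry SD mice (rep144 and rep146) were p21+/mCherry on Standard diet, and the mCherry HFD mice (rep128 and rep129) were p21+/mCherry on High Fat diet. The Tert HFD mice (rep134 and rep136) were p21+/mCherry-Tert and the TertCi HFD mice (rep138 and rep140) were p21+/mCherry-TertCi, both on High Fat diet. All 8 mice therefore carried 1 modified p21 allele, including the controls, and p21 is the product of Cdkn1a. The p21 promoter drove the Tert and TertCi transgenes, so expression was not directed to mesothelium. The labels do not spell out how TertCi differs from Tert and give no age or sex. The series' design text speaks of the stromal vascular fraction and of partly different p21 genotypes. The sample labels were followed here.

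Mesothelium forms a single sheet over the peritoneal organs and secretes a lubricating fluid. It is of mesodermal origin and holds both epithelial features, such as keratins, junctions and apical polarity, and mesenchymal ones, such as vimentin. In visceral fat it makes the outer surface of the depot, lies on a basement membrane, and is known as a source of growth factors, retinoic acid, hyaluronan and complement. It can lose its epithelial features and take up those of fibroblasts during fibrosis.

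The promoters of 3 genes that set these nuclei apart are shown because their letters differ in the motifs they hold. Upk3b (a uroplakin, a plaque protein of apical membranes) and Lrrn4 (a leucine-rich repeat membrane protein) are markers of the rule, and Bnc1 (basonuclin, a zinc finger factor) is not. Each line gives the 250 bases before the gene's start, 5′ to 3′ on the gene's strand, from RefSeq in the build GRCm38.p6. Capitals mark 6-letter motifs found by search on both strands: GGAATG, the core of TEAD sites (CATTCC on the other strand), and GGGCGG, the GC box (CCGCCC on the other strand).
Upk3b, chr5:136038246-136038495, plus strand: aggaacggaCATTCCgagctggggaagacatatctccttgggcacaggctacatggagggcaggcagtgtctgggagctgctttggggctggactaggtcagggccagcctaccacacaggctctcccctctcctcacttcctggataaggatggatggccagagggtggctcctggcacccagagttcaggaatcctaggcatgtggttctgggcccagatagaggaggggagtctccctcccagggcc
Lrrn4, chr2:132880863-132881112, minus strand: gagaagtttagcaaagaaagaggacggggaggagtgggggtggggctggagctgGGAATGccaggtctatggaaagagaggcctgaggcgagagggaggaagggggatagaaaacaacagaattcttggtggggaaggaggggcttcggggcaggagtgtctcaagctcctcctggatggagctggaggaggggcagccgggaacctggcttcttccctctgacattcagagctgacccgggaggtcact
Bnc1, chr7:81992300-81992549, minus strand: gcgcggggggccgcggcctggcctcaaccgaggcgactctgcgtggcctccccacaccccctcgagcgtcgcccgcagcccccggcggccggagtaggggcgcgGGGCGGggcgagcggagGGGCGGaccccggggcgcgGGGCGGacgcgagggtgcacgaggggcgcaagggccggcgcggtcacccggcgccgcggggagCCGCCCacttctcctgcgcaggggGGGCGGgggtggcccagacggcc
Upk3b and Lrrn4 each held 1 TEAD core, 241 and 196 bases before the start, and no GC box. Bnc1 held 5 GC boxes and no TEAD core. Of the 8 markers, 5 had a promoter in the table; of the 3 not shown Gpm6a held 1 TEAD core, Nxph1 2 GC boxes and Muc16 neither motif. A TEAD core was in 12.6% of all 27025 promoters, and a GC box in 32.9%. A match is a match of letters and not a binding site.

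The libraries held between 23378488 and 139749876 UMIs, and 3233 to 21996 barcodes were kept per library, where the protocol states that an estimated 5000 to 10000 nuclei were loaded. No 2 libraries shared more than 0.7% of the kept barcodes of the smaller one. The summed UMIs of the mesothelial nuclei ran from 102956 in Tert mouse rep136, which had 36 such nuclei, to 3979535 in mCherry SD mouse rep144. A gene with no UMI in mouse rep136 could have been present at up to 29.1 CPM (UMIs scaled to the same total in every library), the limit that a count of 0 allows at 3 counts. Scrublet scored likely doublets, and the highest scores, at 0.8% of barcodes per 1000 kept, marked 34.8% of the mesothelial nuclei of mCherry HFD mouse rep128, 21.5% of Tert mouse rep134, 19.3% of TertCi mouse rep138 and between 4.35% and 9.09% in the other 5 libraries. Of all kept barcodes, scrublet marked 17.6% in mouse rep128, 10.6% in mouse rep134 and 10.98% in mouse rep138. In the other 5 libraries it marked 2.60% to 7.83% of all kept barcodes. In each library the marked share was higher among mesothelial nuclei. The results were computed with the marked nuclei kept, and the counts called in the diet, Tert and TertCi contrasts are also given without them. The comparisons with progenitor and all other nuclei were not rerun without them. Replicate mice differed by more than counting error: chi-square over genes, divided by its degrees of freedom, was 3.70 to 9.19 in the 4 pairs.

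The marker genes were seen in unequal shares of the nuclei. Gpm6a, a neuronal-type membrane glycoprotein, had a UMI in 93.4% of the 3949 nuclei and Pkhd1l1, a large receptor-like protein, in 88.9%. Muc16, the surface mucin also known as CA125, was seen in 80.3%, Wt1, a transcription factor of the mesodermal lining, in 73.3%, and Nxph1, a secreted neurexin ligand, in 71.8%. Upk3b was seen in 32.9%, Msln (mesothelin) in 25.3% and Lrrn4 in 21%. With every nucleus thinned to 1000 UMIs, Gpm6a was seen in 65.0% to 86.6% of mesothelial nuclei per library, against 1.60% to 7.07% of all other kept barcodes. Muc16 was seen in 27.8% to 59.3% against 0.222% to 2.76% at the same depth, and Wt1 in 33.3% to 43.7% against 2.59% to 8.12%. The markers thus stood apart from the level in all other kept barcodes pooled, in all 8 libraries, as the rule required. Wt1 was also seen in many stromal progenitor nuclei (barcodes with the progenitor sum highest). Without thinning, a Wt1 UMI was in 18.1% (mouse rep136) to 35.5% (mouse rep128) of progenitor nuclei per library. In mesothelial nuclei that share was 55.6% to 85.7%, so Wt1 was not confined to them.

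The distance from the edge of the rule differed between libraries. Exactly 3 markers were detected in 680 nuclei, 4 in 950, 5 in 1091, 6 in 751, 7 in 383 and all 8 in 94. Just inside the edge of 3 markers lay 15 to 257 nuclei per library, which was 27.8% and 22% of mesothelial nuclei in the mCherry SD mice, 4.28% and 9.03% in mCherry HFD and 41.7% in Tert mouse rep136. Thinned to 1000 UMIs, 55.6% to 75.4% of the nuclei of a library still met the rule. Just outside, with 2 markers and the higher sum, lay 19 to 157 barcodes per library. Median UMIs per mesothelial nucleus were 2407 and 2935 for mCherry SD, 5312.5 and 3170 for mCherry HFD, 3440 and 2008.5 in Tert and 2559 and 2677 in TertCi. The other kept barcodes of the same libraries had medians from 1714 to 3627.5.

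Genes outside the rule describe what else these nuclei carried. Against all other kept barcodes, edgeR called 5776 of 14851 genes, or 38.9%, of which 2430 (16.4%) were higher in mesothelial nuclei. Against stromal progenitor nuclei (15056 barcodes with the progenitor sum highest) it called 4650 of 13137, or 35.4%, with 2313 (17.6%) higher. These counts describe nuclei picked for co-expressed genes and are not a test of their identity. Among genes at 50 or more CPM, the genes with the largest differences included Pcnx2, Ptprq (a receptor phosphatase), Spock3 (a secreted proteoglycan), Sh3rf2, Rbfox1 (a splicing factor), Wdr17, Mdfic2, Bnc1, Fras1 (a basement membrane protein), Upk1b (a uroplakin) and Tmem132d. Rbfox1 was at 1742 CPM on average in mesothelial nuclei and 77.2 in the others, Fras1 at 573 and 21.4, Upk1b at 282 and 12.2, and Bnc1 at 116 and 4.67. Each of these 11 genes was higher in the mesothelial nuclei of 8 of 8 libraries.

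A list of 29 other mesothelial genes was read as a further description. It was chosen with earlier results of these data known, so it is not a check of the label. Of 26 tested against all other barcodes, 25 were called higher and none lower, with a median log2 difference of 2.69, where that of all 14851 genes was −0.07. Against progenitor nuclei 22 of 25 were called higher, with a median of 2.28 beside −0.02 for all 13137 genes. The keratins Krt7 and Krt19 differed from all others by 4.03 and 4.18 on the log2 scale, the polarity gene Crb2 by 4.60, the cadherin Cdh3 by 4.45 and Rspo1, a secreted amplifier of Wnt signalling, by 4.36. Aldh1a2, the enzyme that makes retinoic acid, differed by 1.69 and Gata6, a transcription factor of the lining, by 2.11. Against progenitor nuclei these 2 genes differed by 1.03 and 1.11, and Nr1h4, Cdh2 and Prg4 were not called there. Prg4, the joint lubricin, was at 3.96 CPM against 3.59 in all other barcodes and was the exception among those tested against them. None of these genes was in the rule, and they too describe the nuclei it picked.

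**Figure D1:**
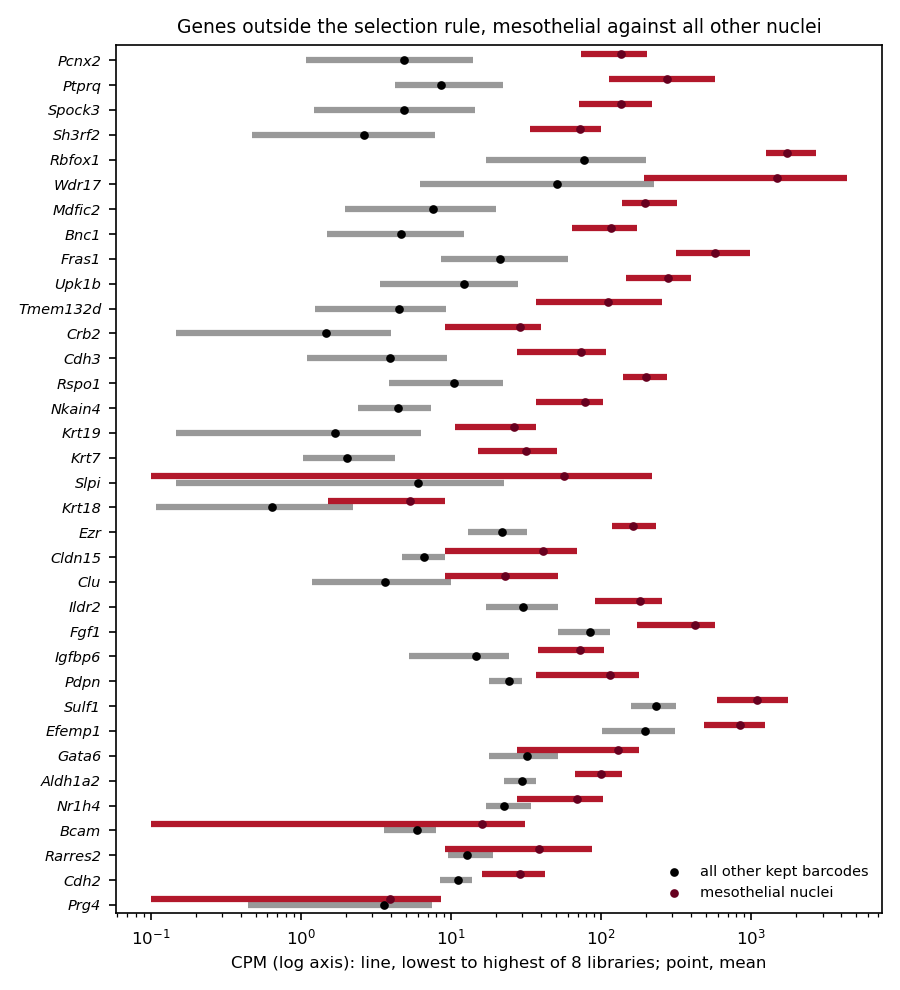
Levels of genes outside the rule in mesothelial nuclei (red lines) and in all other kept barcodes (grey lines), on a log axis of CPM. Each line runs from the lowest to the highest of 8 libraries, with a library at 0 drawn at the left end of the axis, and each point is the mean. Bnc1 averaged 116 CPM in mesothelial nuclei and 4.67 in the others, and Prg4 lay at 3.96 and 3.59.

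The share of mesothelial nuclei varied widely within 3 of the 4 groups. It was 14.5% (95% interval 13.7 to 15.4) and 6.41% (5.93 to 6.91) in the mCherry SD mice, and 2.45% (2.25 to 2.66) and 6.59% (5.89 to 7.35) in mCherry HFD. In Tert mice it was 5.49% (5.11 to 5.89) and 1.11% (0.781 to 1.54), and in TertCi mice 4.53% (4.19 to 4.89) and 3.44% (2.96 to 3.98). The intervals are exact binomial and cover counting error only. Mouse rep144 stood highest and mouse rep136 lowest, and mCherry SD mouse rep146 lay below mCherry HFD mouse rep129, so those groups overlapped. The group means were 10.5% ± 5.74 (SD, n = 2), 4.52% ± 2.93, 3.30% ± 3.10 and 3.99% ± 0.769.

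No contrast of the share passed the test. The diet difference, mCherry HFD less mCherry SD, was −1.22 on the log2 scale (SE 1.02, adjusted p = 0.370, edgeR over 6 classes of nuclei). The Tert difference from mCherry HFD was −0.44 (SE 1.01, adjusted p = 0.671) and the TertCi difference −0.17 (SE 1.01, adjusted p = 0.864), both by edgeR. An exact permutation test of the F statistic over the 4 groups gave p = 0.314, where 105 splits allow no less than 0.00952. Thinned to 1000 UMIs before the rule was applied, the group means were 6.04% ± 3.19 (SD, n = 2), 3.24% ± 2.15, 2.43% ± 2.51 and 2.73% ± 0.942, and the exact p was 0.524. Set only against mesothelial and progenitor nuclei together, the diet difference was −1.45 and passed (adjusted p = 0.0425, edgeR). That adjustment was over these 2 classes, whose counts make up the total, so it is not a like measure to the one over 6 classes. Over the other settings the diet difference ran from −0.88 to −1.40, none of which passed, and over the fits without 1 library from −0.51 to −2.10.

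**Figure D2:**
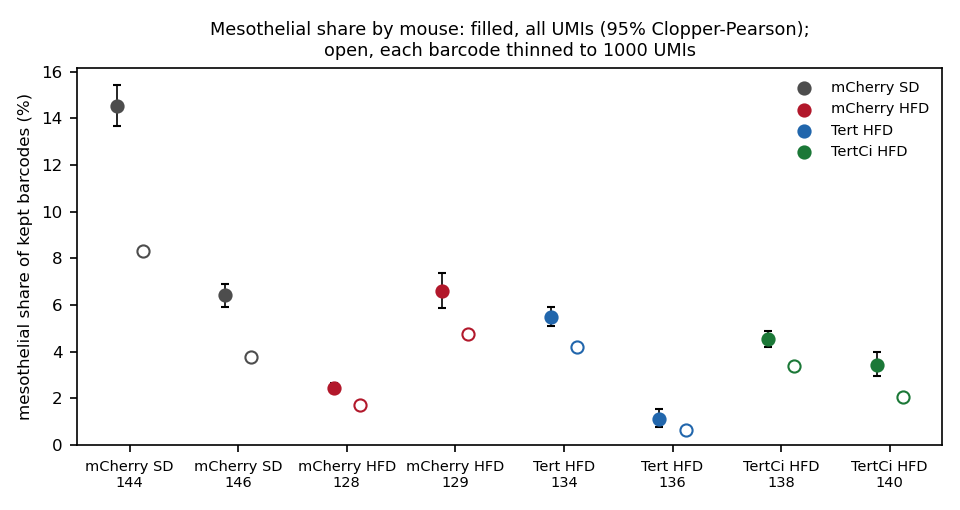
Mesothelial nuclei as a percent of kept barcodes in each mouse by group, with filled points for all UMIs (bars: 95% exact binomial intervals, counting error only) and open points after thinning each barcode to 1000 UMIs. The share ran from 1.11% in Tert mouse rep136 to 14.5% in mCherry SD mouse rep144, and the mice of a group lay far apart except in TertCi (4.53% and 3.44%).

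The targeted locus was sparsely read in these nuclei. Cdkn1a, which encodes the cell cycle inhibitor p21, gave 112 UMIs in all mesothelial nuclei, and its level was 2.02 and 3.30 CPM in mCherry SD, 11.8 and 8.20 in mCherry HFD, 5.56 and 0 in Tert and 2.39 and 6.10 in TertCi. Both mCherry HFD mice were above the 5 other mice with a UMI, whereas the 0 of Tert mouse rep136 allows up to 29.1 CPM, and the rise with diet was 1.96 on the log2 scale (SE 0.54, adjusted p = 0.0103, edgeR). In the barcodes below the filters Cdkn1a went from 3.25 to 24.1 CPM between the same groups, and the part of free RNA in the rise was not tested. Tert, the catalytic subunit of telomerase, gave 125 UMIs, at 6.06 and 4.77 CPM in mCherry SD, 10.0 and 7.57 in mCherry HFD, 4.23 and 0 in Tert and 6.22 and 7.62 in TertCi. The libraries labelled Tert were not the highest for Tert, and at 0 UMIs mouse rep136 allows up to 29.1 CPM. The mCherry sequence gave 1 UMI in the mesothelial nuclei of all libraries and 25 in all barcodes, so it did not check the labels.

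High Fat diet was compared with Standard diet in the mCherry mice, the question being what the diet changed in the lining cells. Of 14469 genes tested in summed mesothelial counts, 1903 were higher (13.2%) and 1230 lower (8.5%) in mCherry HFD at an adjusted p under 0.05 by edgeR, 21.7% of genes in all. The count was 1095 with DESeq2, 1090 without the nuclei that scrublet marked and 1532 without mouse rep128. The genes with the largest differences included known adipocyte and macrophage genes. Cyp2e1 (a cytochrome P450) was at 150.8 and 160.7 CPM in mCherry SD against 2.00 and 0 in mCherry HFD, and Adrb3, the beta-3 adrenergic receptor of adipocytes, at 251 and 268 against 6.23 and 9.46. Myh15 was at 0.288 and 0 against 24 and 35.3, and Spp1, the macrophage product osteopontin, at 0 and 0 against 4.45 and 10.7. The groups did not overlap for these genes, as for 63.7% of all genes tested.

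The same genes moved in the barcodes below the filters, which hold free RNA and small or broken nuclei. There Cyp2e1 went from 309 to 6.63 CPM, Adrb3 from 440 to 22.5, Myh15 from 0.465 to 63.7 and Spp1 from 0.249 to 43.3. Of the 12 highest and 12 lowest genes of the diet contrast, 24 of 24 differed in the same direction below the filters, and 21 of 24 were there at or above their mesothelial level on average. Olfr112 and Olfr111, near-identical copies whose counts are uncertain, Amelx, Gnat3, Degs2, Syt14, Slc1a3 and Rtl4 were among them. Amelx and Olfr112 were listed at 0 in both mCherry SD mice, so their fitted differences depend on the prior count. How far free RNA makes up these differences was not tested.

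Markers of other cells moved along with the groups. The summed level of 8 adipocyte markers outside the rule, none at 0 in any group, was 1783 to 2194 CPM in the mesothelial nuclei of mCherry SD mice and 439 to 544 in mCherry HFD, beside 2051 to 4281 and 530 to 623 below the filters. Of these 8 markers 7 fell and none rose with diet, with a median of −2.82, where 13.2% of all genes rose and 8.5% fell. The sum of 10 macrophage markers was 1337 to 1417 in mCherry SD and 2595 to 2962 in mCherry HFD, beside 1109 to 1396 and 5405 to 6784 below the filters, and 7 of 10 rose and 2 fell (median 2.01). Gpnmb, a marker of lipid-laden macrophages, went from 16.4 and 4.77 to 395 and 471 CPM, and below the filters from 13.1 to 1097. The part of these cells' RNA in the results was not tested. The progenitor genes of the rule summed to 1025 to 1055 CPM in mesothelial nuclei of mCherry SD mice and 2046 to 2242 in mCherry HFD. That was above the other kept barcodes, at 555 to 703 and 1123 to 1554, and below the filters the sums were 776 to 946 and 2791 to 3074. For the remaining lists, 3 of 5 lymphatic genes rose, 2 of 8 progenitor markers rose and 3 fell, and 1 each of 7 endothelial, 5 tested lymphoid and 2 tested Schwann markers fell. The progenitor markers that rose, Col1a1 and Col1a2, are also in the list of mesenchymal transition. None of 5 tested mural markers and 1 tested epithelial marker was called.

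**Figure D3:**
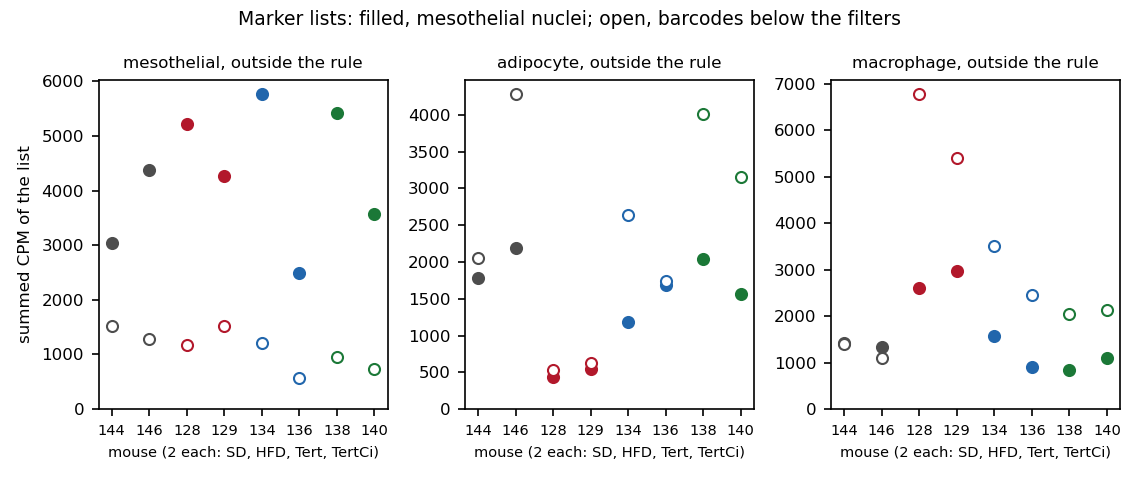
Summed levels of marker lists outside the rule in each mouse, in mesothelial nuclei (filled) and in barcodes below the filters (open), in CPM. The adipocyte sum was 439 to 544 in the mesothelial nuclei of mCherry HFD mice and 1783 to 2194 in mCherry SD, and the mesothelial sum of 3050 to 5225 in these 2 groups lay above the 1165 to 1517 below the filters.

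A narrower set of genes was therefore read separately. These 973 genes, called mesothelial-enriched below, were higher in mesothelial nuclei than in all other barcodes and at 2 or more times their level below the filters, and 682 of them were also higher than in progenitor nuclei. The set was chosen after the values above were seen, and a gene can have met its rule through the group where it was high, so its counts are a description. With diet, 87 of the 973 rose and 28 fell, which is 11.8% beside 21.7% of all genes tested. Their median difference was 0.13, whereas it was −0.46 in the barcodes below the filters, and that of all genes tested was 0.02. With DESeq2's size factors 112 rose and 15 fell, with DESeq2 38 of these genes were called, without the nuclei that scrublet marked 54 rose and none fell, and without mouse rep128 53 were called.

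The enriched genes were named only where called, at a mean of 20 CPM or more over all libraries and without overlap between the groups, so the separation of the named genes is part of their choice (63.7% of all genes did not overlap for diet). Slc38a11, Synpr, Plxna4os3, Pard3bos1, Nr6a1os and Eda2r reached that mean only through the mCherry HFD mice, so their differences are given as descriptions. Slc38a11, of the amino acid transporter family SLC38, was at 3.75 and 6.6 CPM in mCherry SD, 70.4 and 80.8 in mCherry HFD, 19.1 and 0 in Tert and 14.4 and 4.57 in TertCi, a diet difference of 3.88 on the log2 scale (SE 0.39). Synpr, the synaptic vesicle protein synaptoporin, was at 6.92 and 10.3, then 105 and 74.5, 20.1 and 0, and 24.9 and 6.10, a diet difference of 3.41 (SE 0.43). With every nucleus thinned to 1000 UMIs, a Synpr UMI was seen in 1.08% and 1.91% of mCherry SD nuclei and in 10.8% and 11.7% of mCherry HFD nuclei. Below the filters Synpr went from 2.37 to 6.90 CPM and Slc38a11 from 1.44 to 10.4.

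Transcripts annotated as opposite-strand neighbours were among the named rises. Gata6os, the antisense neighbour of Gata6, was at 152 and 156 CPM in mCherry SD, 419 and 366 in mCherry HFD, 305 and 183 in Tert and 346 and 274 in TertCi. It rose by 1.35 with diet (SE 0.21, adjusted p = 4.96e-05, edgeR), while Gata6 itself was at 115 and 127 against 135.8 and 140.7 CPM and was not called (adjusted p = 0.726). Below the filters Gata6os was at 37.1 and 44.6 CPM in the same groups. Hand2os1, the antisense neighbour of the heart and lining factor Hand2, was at 12.1 and 19.1 CPM against 58.1 and 33.4 (1.61, SE 0.31, adjusted p = 0.000505, edgeR), beside 4.39 and 5.01 below the filters. This call was lost without mouse rep128 (adjusted p = 0.0672, edgeR). Plxna4os3 rose by 5.19, Pard3bos1 by 3.44 and Nr6a1os by 2.24, each also higher below the filters. Whether strand was used in counting is not given in the sources used here, and the part of a partner gene's reads in these counts was not tested.

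Other enriched genes rose by smaller steps. Eda2r, a receptor known as a p53 target, rose by 1.26 from 14.1 and 15.8 to 40.7 and 29.7 CPM. Gabra4, a subunit of the GABA-A receptor, rose by 1.2, Ak5, an adenylate kinase, by 1.21 and Cabcoco1 by 1.05. Below the filters Cabcoco1 went the other way, from 7.18 to 5.00 CPM.

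The enriched genes that fell with diet included signalling genes. Gli2, a transcription factor of Hedgehog signalling, was at 126 and 141 CPM in mCherry SD, 65.9 and 65.6 in mCherry HFD, 132 and 106 in Tert and 155 and 180 in TertCi, and fell by 1.02 (SE 0.20, adjusted p = 0.000703, edgeR). Kcnd3, a voltage-gated potassium channel, was at 298 and 387, 214 and 199, 467 and 530, and 431 and 392, and fell by 0.73 (SE 0.20, adjusted p = 0.00914, edgeR). For both genes the 2 mCherry HFD mice were the lowest of the 8 mice. Below the filters Gli2 was at 66.2 and 15.0 CPM in the same groups and Kcnd3 at 72.9 and 12.8, and the part of free RNA was not tested. Osbpl10 fell by 1.55, Sez6l by 1.53, the neurotrophin Ntf3 by 1.09, the kinase Src by 1.01, Sync by 0.89, Spsb1 by 0.85, Ptgis (prostacyclin synthase) by 0.83, Map6 by 0.73 and Sh3rf2 by 0.69. Without the nuclei that scrublet marked none of the falls named here passed, those of Gli2, Osbpl10, Sez6l and Spsb1 included. The calls of Kcnd3, Ntf3, Src, Sync, Ptgis, Map6 and Sh3rf2 were each lost in 6 or more of the other 17 or 18 settings.

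**Figure D4:**
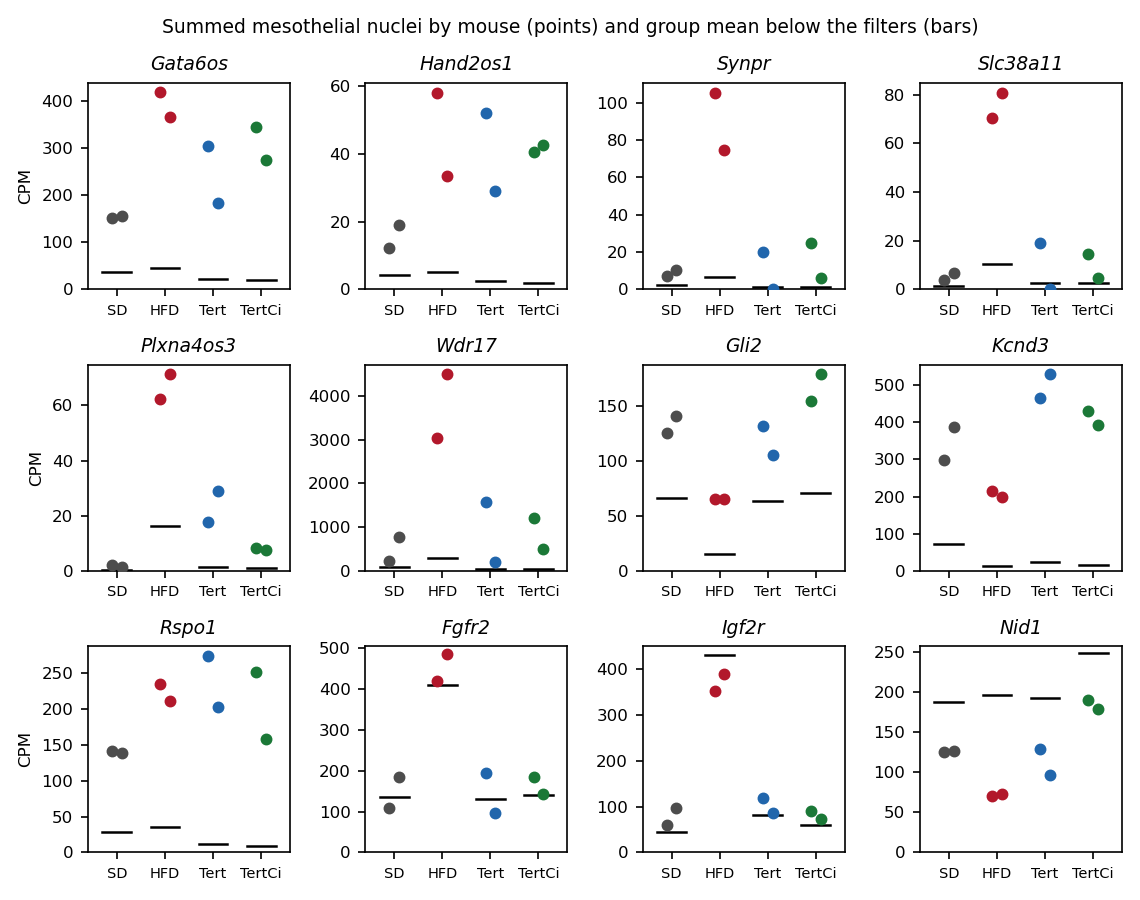
Levels of 12 genes in mesothelial nuclei, in CPM, with 1 point per mouse and a bar at the group mean in the barcodes below the filters, for mCherry SD, mCherry HFD, Tert HFD and TertCi HFD. Gata6os lay at 152 and 156 in mCherry SD against 419 and 366 in mCherry HFD, with bars at 37.1 and 44.6.

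**Figure D5:**
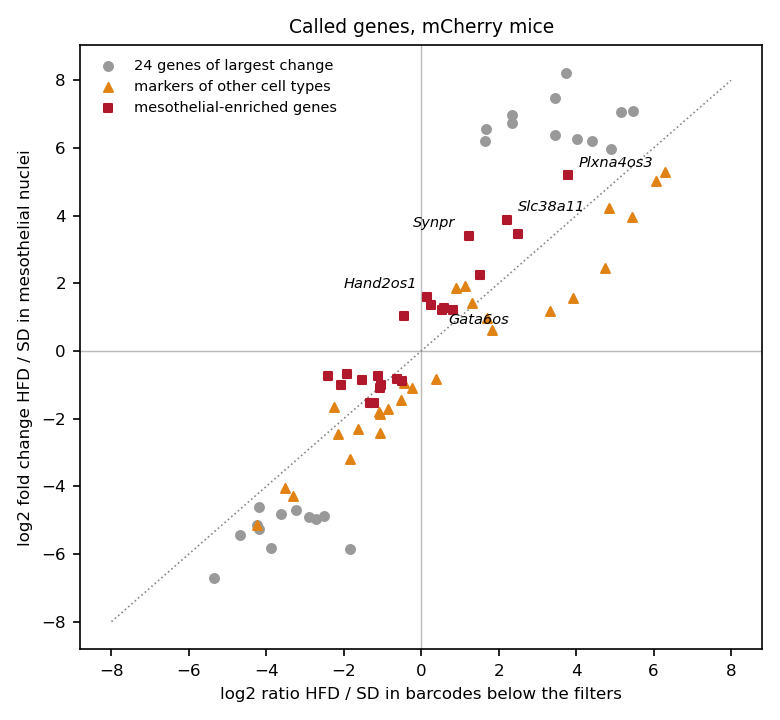
Diet differences of called genes in mesothelial nuclei (vertical axis, log2 fold change) against barcodes below the filters (horizontal axis, log2 ratio of CPM + 1), for the 24 genes of largest change (grey), markers of other cell types (orange) and mesothelial-enriched genes (red), with the line of equal values dotted. Hand2os1, at 1.61 and 0.16, and Gata6os, at 1.35 and 0.26, changed in the nuclei and little below the filters, whereas Plxna4os3 lay high on both axes.

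Of the list of other mesothelial genes, 3 of 28 tested rose with diet and none fell (median 0.11), beside 13.2% higher and 8.5% lower of all genes. Rspo1 was at 140.7 and 138.3 CPM in mCherry SD and 235 and 210 in mCherry HFD, a rise of 0.68 (SE 0.21, adjusted p = 0.0249, edgeR) that was lost in 5 of 18 other settings, among them without mouse rep128, and beside which its level below the filters was 28.6 and 35.2. Clu (clusterin) rose by 1.80 and Rarres2, the adipokine chemerin, by 1.61, and both were also higher below the filters, by 1.98 and 2.25 on the log2(CPM + 1) scale. Bnc1 was at 97.8 and 112 against 118 and 109 CPM, Upk1b at 215 and 280 against 303 and 302 and Efemp1 at 726 and 821 against 875 and 878, none of them called. The other 25 genes of the list were not called, which does not show that they did not change.

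Among growth factors, 4 of 39 tested genes rose and 8 fell (median −0.26), where 13.2% of all genes rose and 8.5% fell (median 0.02). Of the ligands, Vegfa, the main angiogenic factor, was at 152 and 130 CPM in mCherry SD and 23.2 and 30.9 in mCherry HFD (−2.42, SE 0.28, adjusted p = 4.37e-06, edgeR). Nrg4, a neuregulin made by adipocytes, fell by 3.72, Btc by 2.30 and Fgf10 by 3.87, and below the filters Vegfa went from 267 to 82.9 CPM and Nrg4 from 644 to 44.5. Pdgfd, a platelet-derived growth factor, rose by 0.62 (SE 0.20, adjusted p = 0.0291, edgeR), from 523 and 386 to 661 and 734 CPM, while it went from 257 to 137 below the filters. That call was lost in 7 of 18 other settings, among them without mouse rep128, rep129 or rep146. Of the receptors, Fgfr2 was at 109 and 184 against 421 and 486 CPM (1.63, SE 0.26, adjusted p = 0.000251, edgeR), beside 135 and 411 below the filters, and Fgfr1 fell by 0.81. Igf2r, the receptor that clears IGF2 and sorts lysosomal enzymes, was at 60.0 and 96.9 against 351 and 390 CPM (2.24, SE 0.23, adjusted p = 1.96e-07, edgeR). Lgr4, a receptor for R-spondins, fell by 1.37 and Erbb4 by 2.68. The growth hormone receptor Ghr was at 10106 and 6199 against 805 and 1514 CPM, a fall of 2.82, and its level below the filters went from 9968 to 880.

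Of 31 basement membrane and surface genes 1 rose and 8 fell with diet (median −0.32), beside 13.2% higher and 8.5% lower of all genes (median 0.02). Lamc1, a laminin chain, was at 455 and 323 CPM in mCherry SD and 140 and 150 in mCherry HFD (−1.43, SE 0.21, adjusted p = 2.06e-05, edgeR). Nid1 (nidogen), which links laminin and collagen IV, was at 125 and 127 against 69.9 and 72.6 CPM (−0.82, SE 0.20, adjusted p = 0.00411, edgeR), while it was at 188 and 196 below the filters. Hspg2 (perlecan) fell by 1.11, Itga6 by 1.12, Lamb1 by 0.88, Lama4 by 0.74 and Col4a1 by 0.63, and Col4a1 went up below the filters, from 189 to 322 CPM. Cd44, the hyaluronan receptor, rose by 1.10, from 112 and 115 to 254 and 232 CPM. Of 26 junction and polarity genes 3 fell and none rose (median −0.21): Pard3 by 0.70, Ctnna1 by 0.57 and Magi3 by 0.56.

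Of 31 genes of mesenchymal transition 6 rose and 6 fell (median −0.29), where 13.2% of all genes rose and 8.5% fell. Col1a1 rose by 1.19, Postn by 1.15, Vim by 0.92, Itgav by 0.76, Col1a2 by 0.63 and Tgfbr1 by 0.61. All 6 were also higher below the filters, where Col1a1 went from 55.6 to 566 CPM. Among those that fell were Ccn1 by 1.37, Tgfbr3 by 1.04, Zeb1 by 0.89, Smad3 by 0.79 and Tgfbr2 by 0.56, the last without a difference below the filters (193 and 193 CPM). Of 14 retinoid genes 1 rose and 2 fell, Rxra by 1.34 and Rarg by 0.70, and Aldh1a2 was at 93.1 and 115 against 75.5 and 68.8 CPM without a call (adjusted p = 0.137, edgeR).

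The counts of the remaining lists stand beside 13.2% of all genes higher and 8.5% lower with diet. Of 36 inflammatory genes 4 rose and 3 fell (median 0.02). Lcn2 rose by 3.33, Cfb by 1.92, Saa3 by 1.39 and Cxcl16 by 1.31, at levels of at most 19.6 CPM in any mCherry mouse, and Ptges, Lifr and Ptgis fell by 1.57, 1.18 and 0.83. Among 33 lipid genes 7 rose and 12 fell (median −0.39). Plin2, the lipid droplet coat protein, was at 68.4 and 70.8 against 287 and 305 CPM (2.09, SE 0.20, adjusted p = 9.26e-08, edgeR), and it went from 86.3 to 799 below the filters. Of 21 p53 and senescence genes Plk2, Cdkn1a and Eda2r rose and none fell (median 0.48). Of 21 cell cycle genes 7 rose and Ccnd2 fell (median 0.97). Mki67 was at 1.73 and 2.57 against 9.57 and 10.7 CPM, beside 2.33 and 22.2 below the filters. Of 20 immediate early and heat shock genes Atf3 and Hspa8 rose and Jund and Klf2 fell.

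The Tert HFD mice were compared with the mCherry HFD mice, which also serve as controls for the diet and the TertCi contrasts, so the 3 are not independent. Of 14469 genes 231 were higher (1.6%) and 569 lower (3.93%) with Tert, 5.53% in all, and the groups did not overlap for 48.6%. The count rested on few libraries. It was 36 without mouse rep134, 463 without mouse rep136, 419 without mouse rep128, 1480 and 1496 without one or the other mCherry SD mouse, and 0 by edgeR once the nuclei marked by scrublet were removed, when 1214 of 12595 genes had an unadjusted p under 0.05. All named Tert calls are read with that limit. The 24 genes named for the largest differences, among them Adrb3 at 83.9 and 164 CPM in Tert against 6.23 and 9.46, Mageb18, Chst1, Lgals12 and Cr2, were in 22 of 24 cases different in the same direction below the filters. The adipocyte sum in mesothelial nuclei was 1185 to 1690 in Tert and 439 to 544 in mCherry HFD, and the macrophage sum 913 to 1580 and 2595 to 2962. Of 7 endothelial markers 3 were higher with Tert and none lower (median 0.94), with a sum of 262 to 479 CPM against 125 to 226, beside 471 to 661 against 249 to 256 below the filters. Of the remaining lists 1 of 2 Schwann markers was higher. The part of these cells' RNA in the Tert results was not tested.

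Of the 973 mesothelial-enriched genes 24 were higher and 21 lower with Tert, or 4.62% (median 0.23, all genes −0.04), and 0 were called by edgeR without mouse rep134, when 121 had an unadjusted p under 0.05. Of all genes tested 5.53% were called, beside the 4.62% here. With DESeq2's size factors 15 enriched genes were higher and 22 lower, with DESeq2 1 and 4, and over genes at 2 or more times their level in barcodes of 10 to 100 UMIs, a narrower set than all barcodes below the filters, 1 and 20. Kcnd3 was at 467 and 530 CPM against 214 and 199 in mCherry HFD (1.24, SE 0.21, adjusted p = 0.00115, edgeR), and a UMI of it was seen in 39.6% and 38.9% of nuclei thinned to 1000 UMIs against 22.5% and 17.4%. Tspan15, a tetraspanin, was higher by 1.36, Sh3rf2 by 1.27, Tead4, a transcription factor of Hippo signalling, by 1.14, Gdpd5 by 1.14, Tmem117 by 1.11, the ion channel Asic2 by 1.08 and Gli2 by 0.95. Spock2 was higher by 1.02, Epb41l4a, Eml2 and Mapk4 by 0.95 each. Below the filters Tspan15 was at 13.2 and 16.6 CPM and Mapk4 at 5.98 and 5.52 in the 2 groups. Kcnd3 and Gli2 had fallen with diet below the filters too, and the part of free RNA in their Tert differences was not tested. In thinned nuclei a Tspan15 UMI was seen in 6.07% and 0% of Tert against 2.60% and 1.67% of mCherry HFD. For Sh3rf2 these shares were 9.79% and 5.56% against 6.51% and 5.69%, so for both genes mouse rep136 was the lowest of the 4 mice. Sntg1, a syntrophin of the membrane scaffold, was at 481 and 501 CPM against 1028 and 1405, with mCherry SD at 1021 and 922 and TertCi at 979 and 663 (−1.32, SE 0.23, adjusted p = 0.0016, edgeR). The 2 Tert mice were the lowest of the 8 for Sntg1 in CPM but not in the share of nuclei: thinned to 1000 UMIs, a Sntg1 UMI was seen in 26.3% and 47.2% of Tert nuclei, against 44.6% and 54.5% in mCherry HFD, 45.8% and 42.6% in mCherry SD and 38.9% and 34.5% in TertCi. Synpr was lower by 2.29, Slc38a11 by 2.09, Plxna4os3 by 1.83 and Nr6a1os by 1.70. Each of these genes reached the mean needed for naming only through the mCherry HFD mice, so their differences are descriptions.

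In the lists, no mesothelial, retinoid, inflammatory or cell cycle gene was called with Tert of 28, 14, 36 and 21 tested. Over all genes 1.6% were higher and 3.93% lower. Of growth factors 3 of 39 were higher and 2 lower (median 0.21). Vegfa was at 69.6 and 164 CPM against 23.2 and 30.9, higher by 1.70 (SE 0.32, adjusted p = 0.00367, edgeR). Vegfc, a lymphatic growth factor, was higher by 0.84, Btc by 2.53, and Fgfr2 was lower by 1.41 and Igf2r by 1.72. Btc was at 11.6 and 0 CPM in Tert against 1.78 and 1.89, and its difference turned to −5.08 without mouse rep134. Of 31 matrix genes 4 were higher, Hspg2 by 0.94, Lamc1 by 0.89, Col4a1 by 0.81 and Nid1 by 0.78, and Cd44 was lower by 1.00 (median 0.52). Pkp2 was higher by 0.94 among 26 junction genes, and Ccn1 was higher by 1.70 and Tgfbr1 lower by 0.88 among 31 transition genes. Of 33 lipid genes 3 were higher and 4 lower, among the latter Plin2 by 1.53. Of p53 genes Plk2, at 8.47 and 0 against 33.0 and 34.1 CPM, was lower, and of stress genes Atf3.

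The TertCi HFD mice were set against the same mCherry HFD mice. Of 14469 genes 915 were higher (6.32%) and 1353 lower (9.35%), 15.7% in all, and the groups did not overlap for 60.5%. Without mouse rep138 the count was 1055, without mouse rep128 it was 1088, and without the nuclei marked by scrublet it was 251. The 24 genes with the largest differences, such as Adrb3 at 116 and 130 CPM against 6.23 and 9.46, Mageb18, Lhx6, Ret, Abcb4 and Arg1, differed in the same direction below the filters in 24 of 24 cases. Ddi1, Lsm4, Lcn2, Cxcr6 and Arg1 were listed at 0 in both TertCi mice. The adipocyte sum was 1561 to 2039 in TertCi and the macrophage sum 841 to 1089, beside 439 to 544 and 2595 to 2962 in mCherry HFD, and 6 of 8 adipocyte markers were higher and 7 of 10 macrophage markers lower. Of 7 endothelial markers 2 were higher (median 1.18), with a sum of 343 to 443 CPM against 125 to 226, beside 490 to 634 against 249 to 256 below the filters. Of 8 progenitor markers 2 were higher and 1 lower, and 1 of 2 Schwann markers was higher. Their part in the results was not tested.

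Of the 973 enriched genes 101 were higher and 34 lower with TertCi, or 13.9% (median 0.30, all genes −0.02), and the count was 59 without mouse rep138, 66 without mouse rep128, 80 without mouse rep129 and 12 without the nuclei marked by scrublet. Of all genes tested 15.7% were called, beside the 13.9% here. The balance of directions did not hold in every setting. It was 66 higher and 42 lower with DESeq2's size factors, 24 and 35 without mouse rep138, 11 and 20 with DESeq2, 4 and 18 over genes at 2 or more times their level in barcodes of 10 to 100 UMIs, and 1 and 11 without the nuclei marked by scrublet. Gli2 was at 155 and 180 CPM against 65.9 and 65.6 (1.34, SE 0.21, adjusted p = 0.000128, edgeR). It had fallen with diet below the filters too, and the part of free RNA in its TertCi difference was not tested. Il17rd, a membrane inhibitor of FGF signalling, was at 135 and 113 against 53 and 42.9 (1.36, SE 0.22, adjusted p = 0.000195, edgeR), and Bdnf, a neurotrophin, at 101 and 68.6 against 36.7 and 28.4 (1.39, SE 0.27, adjusted p = 0.000922, edgeR). Ptprz1 was higher by 1.58, Tead4 by 1.47, Map6 by 1.27, Frmd5 and Spata13 by 1.23, Sync by 1.21, Mapk4 by 1.2 and Sh3rf2 by 1.14. Plxna4os3 was at 8.14 and 7.62 CPM against 62.3 and 71.3 (−3.05, SE 0.36). Pard3bos1 was lower by 2.87, Slc38a11 by 2.73, Synpr by 2.28 and Nr6a1os by 1.86. Like Plxna4os3, these genes reached the mean needed for naming only through the mCherry HFD mice, so their differences are descriptions. Csrp2 was lower by 1.33 and Krt19 by 1.07. The call of Krt19 was lost in 11 of 18 other settings. Without the nuclei marked by scrublet, none of the higher enriched genes named here passed.

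Among junction and polarity genes 7 of 26 were higher with TertCi and none lower (median 0.51), beside 6.32% higher and 9.35% lower of all genes (median −0.02). Nectin3 was higher by 1.17, the desmosomal gene Pkp2 by 1.11, Magi1 by 0.92, F11r (JAM-A of tight junctions) by 0.77, Magi3 and the polarity gene Pard3 by 0.71 and the catenin Ctnna1 by 0.58. None of the 7 passed once the nuclei marked by scrublet were removed. F11r was at 238 and 201 CPM in TertCi, 143 and 114 in mCherry HFD and 135.5 and 106 in mCherry SD. Of 31 matrix genes 7 were higher and 2 lower (median 0.66). Nid1 was at 190 and 178 CPM against 69.9 and 72.6 (1.38, SE 0.21, adjusted p = 8.02e-05, edgeR), above both mCherry SD mice at 125 and 127, and its level below the filters was 196 in mCherry HFD and 248 in TertCi. Hspg2 was higher by 1.26, Lamc1 by 1.17, Lama3 by 1.09, Lama4 by 0.94, Dag1 (dystroglycan) by 0.74 and Col4a1 by 0.74, and Prg4 and Cd44 were lower. Dag1 and Col4a1 differed by −0.05 and −0.14 below the filters.

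Of 39 growth factor genes 8 were higher and 4 lower with TertCi (median 0.46), beside 6.32% and 9.35% of all genes. Vegfa was at 100.1 and 134.2 CPM against 23.2 and 30.9 (2.12, SE 0.29, adjusted p = 7.65e-05, edgeR). Btc was higher by 3.06, Nrg4 by 2.73, Ghr by 1.92, Lgr4 by 1.21, Vegfc by 0.86, the BMP receptor Bmpr1b by 0.81 and Igf1r by 0.67. Igf2r was lower by 2.16 (SE 0.24, adjusted p = 2.27e-06, edgeR), Fgfr2 by 1.45 (SE 0.27, adjusted p = 0.0015, edgeR), Pdgfa by 1.2 and Igf1 by 0.84. Bmpr1b differed by −0.47 below the filters, against 0.81 in the nuclei. Of the mesothelial list, Krt19 and Prg4 were lower and 26 of 28 were not called.

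For the other lists, also read beside 6.32% of all genes higher and 9.35% lower, 5 of 31 transition genes were higher and 3 lower with TertCi (the former including Ccn1 by 1.43, Col5a1 by 0.90, Smad3 by 0.64 and Zeb1 by 0.63, the latter Col1a1, Vim and Itgav). Of 33 lipid genes 7 were higher and 7 lower. Plin2 was at 67.5 and 54.9 CPM against 287 and 305 (−2.24, SE 0.21, adjusted p = 3.19e-07, edgeR), and it went from 799 to 170 below the filters. Of 21 cell cycle genes 5 were lower (median −0.91), namely Brca1, Top2a, Mki67, Brip1 and Cenpp, and of 20 stress genes 5 were lower and Jund was higher. Fos, Jun, Junb, Atf3 and Hspa8 were the 5. Of inflammatory genes the chemokine Ccl2, at 0.479 and 0 CPM against 15.1 and 18.9, and Lcn2 were lower and Lifr was higher, of retinoid genes Rxra was higher, and of p53 genes Plk2 was lower.

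Tert and TertCi were also compared directly. No gene of 14469 passed at an adjusted p under 0.05 by edgeR (percent called 0, smallest adjusted p 0.220), 759 had an unadjusted p under 0.05, and DESeq2 also called 0. With 1 library left out between 1 and 40 genes passed, the most without mouse rep146. The groups did not overlap for 30.9% of genes. 1 of the 2 Tert libraries had 36 nuclei, and Sntg1, at 481 and 501 CPM in Tert against 979 and 663, was among the genes that did not pass. The absence of a call does not show that the 2 transgenes act alike.

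Whether these effects differed from those in progenitor nuclei of the same libraries was tested with an interaction term over 13137 genes (edgeR). With diet 309 genes differed (2.35%), 1.02% with a higher and 1.33% with a lower difference in mesothelial than in progenitor nuclei. With Tert 77 genes differed (0.586%), 55 higher (0.419%) and 22 lower (0.167%), and with TertCi 332 (2.53%), 250 higher (1.9%) and 82 lower (0.624%). Hand2os1 was among the genes that differed with diet (difference 2.82, adjusted p = 0.0006, edgeR), and Vegfa and Nid1 were among those with TertCi. Of 8 adipocyte markers outside the rule, 7 were called higher in mesothelial than in progenitor nuclei and none lower. Over all genes 17.6% were higher and 17.8% lower. How far adipocyte RNA makes up the differences between the classes was not tested.

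Some genes that mark these nuclei differed widely between mice without a call. Wdr17, a WD-repeat gene, was at 224 and 776 CPM in mCherry SD, 3048 and 4497 in mCherry HFD, 1573 and 202 in Tert and 1201 and 497 in TertCi (diet 2.92, SE 1.16, adjusted p = 0.176, edgeR). Thinned to 1000 UMIs, a Wdr17 UMI was seen in 24.1% and 49.6% of mCherry SD nuclei, 81.8% and 90.3% of mCherry HFD, 69.1% and 19.4% of Tert and 58.4% and 39.5% of TertCi. The mCherry HFD mice were the highest, and the mice of the mCherry SD, Tert and TertCi groups lay far apart. Rbfox1, in contrast, stayed between 1274 and 2686 CPM in all 8 mice, with overlapping groups and no call in the diet, Tert and TertCi contrasts.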

How the data were processed

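Single-nucleus RNA was measured in visceral white adipose tissue of 8 mice, 2 in each of 4 groups. The authors deposited 1 matrix of raw UMI counts per library over 56749 features, made with Cell Ranger 7.1.0 per the file headers, whereas the submitters' processing notes list Cell Ranger 5.0.1, bcl2fastq 2.20.0 and mm39. The promoter table is of another build (GRCm38.p6) and was matched by symbol only.

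UMI counts were summed over the mesothelial nuclei of each library and tested with edgeR 4.0.16 (quasi-likelihood, robust, TMM, filterByExpr, all 8 libraries in 1 fit) in R 4.3.3, with Benjamini-Hochberg adjustment over all genes tested and a threshold of 0.05. The 20 genes of the rule were left out of calls and adjustment. CPM are TMM-scaled, except marker sums, which are scaled to the library's total UMIs alone. Comparisons with progenitor or all other nuclei, and tests of whether an effect differed between classes, used the library as a block. P-values measure the spread between mice, which were 2 per group. Levels below the filters came from all barcodes that failed them, and the alternative that tested only genes at 2 times free RNA used the barcodes of 10 to 100 UMIs. No doublets were removed in the main results; the alternatives were removal of the highest scrublet scores (scanpy 1.11.5), DESeq2 1.42.0, other filters and scaling, and leaving out each library. The pipeline was tested on simulated data. Python 3.11.15 with numpy 2.4.6, scipy 1.17.1 and pandas 2.3.3 made the sums.

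Genes were named by a rule: of the called genes with a symbol and no overlap between groups, the 12 highest and 12 lowest log2 fold changes, then all called members of the lists. The same was done among mesothelial-enriched genes with a mean of 20 CPM or more, a set added after values were seen. Some genes that the rule names are not reported here. The members and the lists were chosen with earlier results of these data known. Which mice shared a processing batch of 2 is not given in the sources used here, so batch was not tested.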

Additional observations from a re-analysis of the deposited data

Results flagged for a closer look

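The effects of diet, Tert and TertCi were also compared between mesothelial and progenitor nuclei of the same libraries, and every result here was flagged because the effect differed between the 2 classes by edgeR's interaction test (Benjamini-Hochberg over 13137 genes). Only genes already called in mesothelial nuclei and named among the enriched genes, or in the mesothelial, growth factor or matrix lists, were looked up. Genes named only from the other lists or for the largest differences were not. Genes of any list without a call in mesothelial nuclei were also left out. Among them was Efemp1 with diet (difference 1.04, adjusted p = 0.0036), which differed by −0.90 in progenitor nuclei. Aldh1a2 was another, with diet (difference −0.96, adjusted p = 0.0273) and TertCi (0.93, adjusted p = 0.0372). So was Cdh3, with Tert (2.23, adjusted p = 0.0172) and TertCi (1.82, adjusted p = 0.0331). In progenitor nuclei Cdh3 averaged 4.69 CPM and differed by −1.7 and −1.6 with Tert and TertCi. The effect in each class and the difference come from separate fits, so the values printed for a gene do not add up exactly. Adipocyte markers were mostly higher in mesothelial than in progenitor nuclei (7 of 8), and the part of adipocyte RNA in these results was not tested. The difference passed for 309 genes with diet (2.35%), 77 with Tert (0.586%) and 332 with TertCi (2.53%). Without mouse rep128 the diet count was 87 and without mouse rep129 it was 504, without mouse rep134 the Tert count was 0 (1035 at an unadjusted p under 0.05) and without mouse rep136 it was 17, and without mouse rep138 the TertCi count was 98.

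With diet, Hand2os1 rose by 1.61 in mesothelial nuclei and differed by −1.2 in progenitor nuclei, a difference of 2.82 (adjusted p = 0.0006). Synpr, which reached the naming mean only through the mCherry HFD mice, differed by 3.41 and 0.71 (difference 2.70), given as a description. Pdgfd differed by 0.62 and −0.51 (difference 1.10, adjusted p = 0.000986). Fgf10 differed by −3.87 and −1.64 (difference −2.31, adjusted p = 0.00685), Vegfa by −2.42 and −1.52 (difference −0.96, adjusted p = 0.0139) and Col4a1 by −0.63 and 0.23 (difference −0.93, adjusted p = 0.00399).

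With Tert, Tspan15 differed by 1.36 in mesothelial and −0.03 in progenitor nuclei (difference 1.42, adjusted p = 0.0351), Tmem117 by 1.11 and −0.29 (difference 1.53, adjusted p = 0.0368) and the kinase Mapk4 by 0.95 and −0.44 (difference 1.39, adjusted p = 0.0209). Plxna4os3, which also reached the naming mean only through the mCherry HFD mice, differed by −1.83 and −4.15 (difference 2.23), given as a description.

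With TertCi, Sh3rf2 differed by 1.14 in mesothelial and −2.06 in progenitor nuclei (difference 3.19, adjusted p = 0.0196). In progenitor nuclei Sh3rf2 averaged only 2.86 CPM, beside 6.04 CPM below the filters, and its change there was not called (adjusted p = 0.174, edgeR). Vegfa differed by 2.12 and 0.61 (difference 1.61, adjusted p = 0.000202), Frmd5 by 1.23 and −0.13 (difference 1.49, adjusted p = 0.014) and Mapk4 by 1.2 and 0.23 (difference 1.06, adjusted p = 0.0375). The laminin chain Lama3 differed by 1.09 and −0.34 (difference 1.40, adjusted p = 0.0422), Nid1 by 1.38 and 0.68 (difference 0.76, adjusted p = 0.0265) and Lgr4 by 1.21 and 0.56 (difference 0.72, adjusted p = 0.0402). The Tert and TertCi differences share the mCherry HFD libraries.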

How the results depend on the processing

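Counts of the diet, Tert, TertCi and Tert against TertCi contrasts were recomputed under 10 other settings, shares under 8, and comparisons with progenitor or all other nuclei under 4 (size factors, DESeq2, no filter, the higher marker sum), each also without each library in turn. Tert mouse rep136, with 36 nuclei, was the shallowest. No paired analysis was possible because the groups share no replicate numbers. With DESeq2 the genes called were 1095 for diet, 215 for Tert and 734 for TertCi, and among mesothelial-enriched genes 38, 5 and 31 (11 higher and 20 lower for TertCi). Over only the genes at 2 or more times their level in barcodes of 10 to 100 UMIs, fewer genes were tested and 118 (93 higher, 25 lower), 40 (3 and 37) and 46 (4 and 42) were called, of them 46, 21 and 22 enriched. Without the nuclei that scrublet marked the counts were 1090, 0 and 251, and among enriched genes 54, 0 and 12 (1 higher and 11 lower for TertCi). With at least 2000 UMIs per nucleus 28 enriched genes were called for Tert and 88 for TertCi. With no filter on low counts 97 enriched genes were called for Tert and 23 genes for Tert against TertCi. With only the 2 groups compared in the fit 1560 genes and 118 enriched genes were called for Tert.

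Leaving out 1 library at a time, the diet count ran from 1532 (without mouse rep128) to 3508 and that of enriched genes from 53 (without mouse rep128) to 156. The Tert count ran from 36 (without mouse rep134) to 1496 (without mouse rep144), and that of enriched genes from 0 (without mouse rep134) to 96 (without mouse rep144), with 94 without mouse rep146, 69 without mouse rep138 and 70 without mouse rep140. The TertCi count ran from 1055 (without mouse rep138) to 2937, and that of enriched genes from 59 (without mouse rep138) to 166. Tert against TertCi ran from 1 to 40 (without mouse rep146). The genes whose effect differed between mesothelial and progenitor nuclei (2.35%, 0.586% and 2.53% of genes tested for diet, Tert and TertCi) were 0.86%, 0.0913% and 1.1% with DESeq2, and with no filter 1.51% for diet and 1.36% for TertCi, over more genes. With a marker sum of 2 or more times each competing sum they were 3.62% for diet and 0.932% for Tert. Without 1 library they ran from 0.676% (without mouse rep128) to 3.87% (without mouse rep129) for diet, from 0% (without mouse rep134) to 1.09% (without mouse rep146) for Tert and from 0.741% (without mouse rep138) to 3.28% for TertCi. The cause of these changes was not tested.

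Of the shares, only diet passed in one setting (−1.45 against mesothelial and progenitor nuclei alone, adjusted over these 2 classes). The TertCi share turned to 0.23 with a marker sum of 2 or more times each competing sum and to 0.38 against mesothelial and progenitor nuclei alone. Without 1 library the diet share ran from −2.10 to −0.51, Tert from −2.01 to 0.44 (0.44 without mouse rep129, 0.29 without mouse rep136), TertCi from −0.72 to 0.71 (0.71 without mouse rep129, 0.0075 without mouse rep140), and Tert against TertCi from −1.84 to 0.46 (without mouse rep136). Scaling by DESeq2's size factors moved the median of all genes by 0.10 for diet, −0.064 for Tert and −0.10 for TertCi (log2), and the enriched genes called were then 112 higher and 15 lower for diet (88.2% higher, against 75.7%), 15 and 22 for Tert (40.5% against 53.3%) and 66 and 42 for TertCi (61.1% against 74.8%). Named genes kept their direction and side of the threshold in 5553 cases and lost the call in 1145, Cdh2 against progenitor nuclei gained it in 3 (without the nuclei scrublet marked 71 diet calls were lost and 65 kept, and 65 of 65 Tert and 90 of 111 TertCi calls were lost, and without mouse rep134 69 of 75 Tert calls), and 1 reversed: Btc with Tert, which without 1 library ran from −5.08 (without mouse rep134) to 2.67 (without mouse rep136).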

Other observations

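The promoters of mesothelial-enriched genes were searched for 4 motifs of 6 letters on both strands in the 250 bases before the start. Of the 973 enriched genes 611 had a promoter in the table, and 15.2% of these held the TEAD core GGAATG, beside 10.6% of the 10229 tested genes with a promoter and 12.6% of all 27025 promoters. The GATA letters AGATAA were in 7.20%, 5.88% and 10.3% of the same sets, the TATA letters TATAAA in 7.53%, 6.58% and 13%, and the GC box GGGCGG in 54.0%, 57.6% and 32.9%. These shares are descriptions and were not tested.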
